A study of Mus musculus with 2 samples.

Results

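The 10 genes described here are the vascular endothelial growth factor (VEGF) ligands Vegfa, Vegfb, Vegfc, Vegfd and Pgf, the receptor tyrosine kinases Flt1, Kdr and Flt4, and the co-receptors Nrp1 and Nrp2. They were chosen by symbol from the 32285 genes of the count table, and all 10 were found. They were followed across cell classes in single-cell RNA sequencing (scRNA-seq) of the mouse temporomandibular joint (TMJ), the jaw joint, after complete Freund's adjuvant (CFA), an inflammatory agent given to provoke joint arthritis. One library came from wild-type (WT) C57BL/6 mice and one from C57BL/6 mice labelled Prox1 mutant, both 8-10 weeks old and both treated with CFA, so that no untreated joint entered the comparison. The study's text describes the mutants as Prox1+/- heterozygotes of the homeobox gene that sets lymphatic endothelial identity, a genotype that is not limited to lymphatic vessels. The number of mice behind each library is not given in the sources used here. With 1 library per genotype there is no replicate, no test was run, and every interval covers counting error only, at 95%, so that genotype, animal and library cannot be told apart.

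VEGF ligands are secreted dimers that drive the growth, permeability and survival of vessels. Vegfa acts through Flt1 (VEGFR1) and Kdr (VEGFR2), and Pgf and Vegfb bind Flt1. Vegfc and Vegfd bind Flt4 (VEGFR3), the receptor best known from lymphatic endothelium, and processed Vegfc also binds Kdr. Nrp1 and Nrp2 lack kinase activity and bind VEGFs beside the kinases as well as class 3 semaphorins, and macrophages are a known source of Vegfa in inflamed joints.

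After filtering, 4352 WT and 5757 mutant cells remained, with 48366846 and 54330221 unique molecular identifiers (UMIs) and medians of 6997 and 4848 UMIs per cell. The cells fell into 43 clusters, 33 of them named into 20 classes by marker genes that did not include the 10 members, whereas the study had itself used Flt1 and Kdr to recognise endothelium. The unnamed cells made up 9.49% of the WT and 32.8% of the mutant cells, and 10 cell barcodes occurred in both libraries. Prox1 itself stood at 11.6 CPM (UMIs scaled to a common total of 1000000, 10.7 to 12.6) in all WT cells and at 5.80 (5.18 to 6.47) in all mutant cells. Within endothelial cells its level was 41.5 CPM in WT and 25.6 in the mutant, whereas in muscle satellite cells it was 313 and 465. A lymphatic gate, at least 2 UMIs over Mmrn1, Ccl21a, Reln, Lyve1 and Pdpn, took in 15 WT and 12 mutant endothelial cells. These held 258 of the 296 WT and 48 of the 119 mutant endothelial Prox1 UMIs. In the other endothelial cells Prox1 stood higher in the mutant, at 5.49 CPM in WT and 16.0 in the mutant (38 and 71 UMIs). These UMIs were not spread over endothelium. Of all endothelial Prox1 UMIs, gated cells included, 285 of 296 in WT and 114 of 119 in the mutant lay in 1 cluster, led by Ubd and Selp. All 10 endothelial markers, among them Cdh5, Pecam1 and Tek, were raised in each of the 3 endothelial clusters, which held 1040 WT and 525 mutant cells. Another 2 clusters with endothelial markers, of 221 WT and 288 mutant cells, were left unnamed for low depth. The macrophage cluster had all 8 of its markers raised, and the inflammatory macrophages, a class set by Nos2, Mmp12 and Spp1, had 6 and 5 of their 6 markers raised in 2 clusters.

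**Figure D1:**
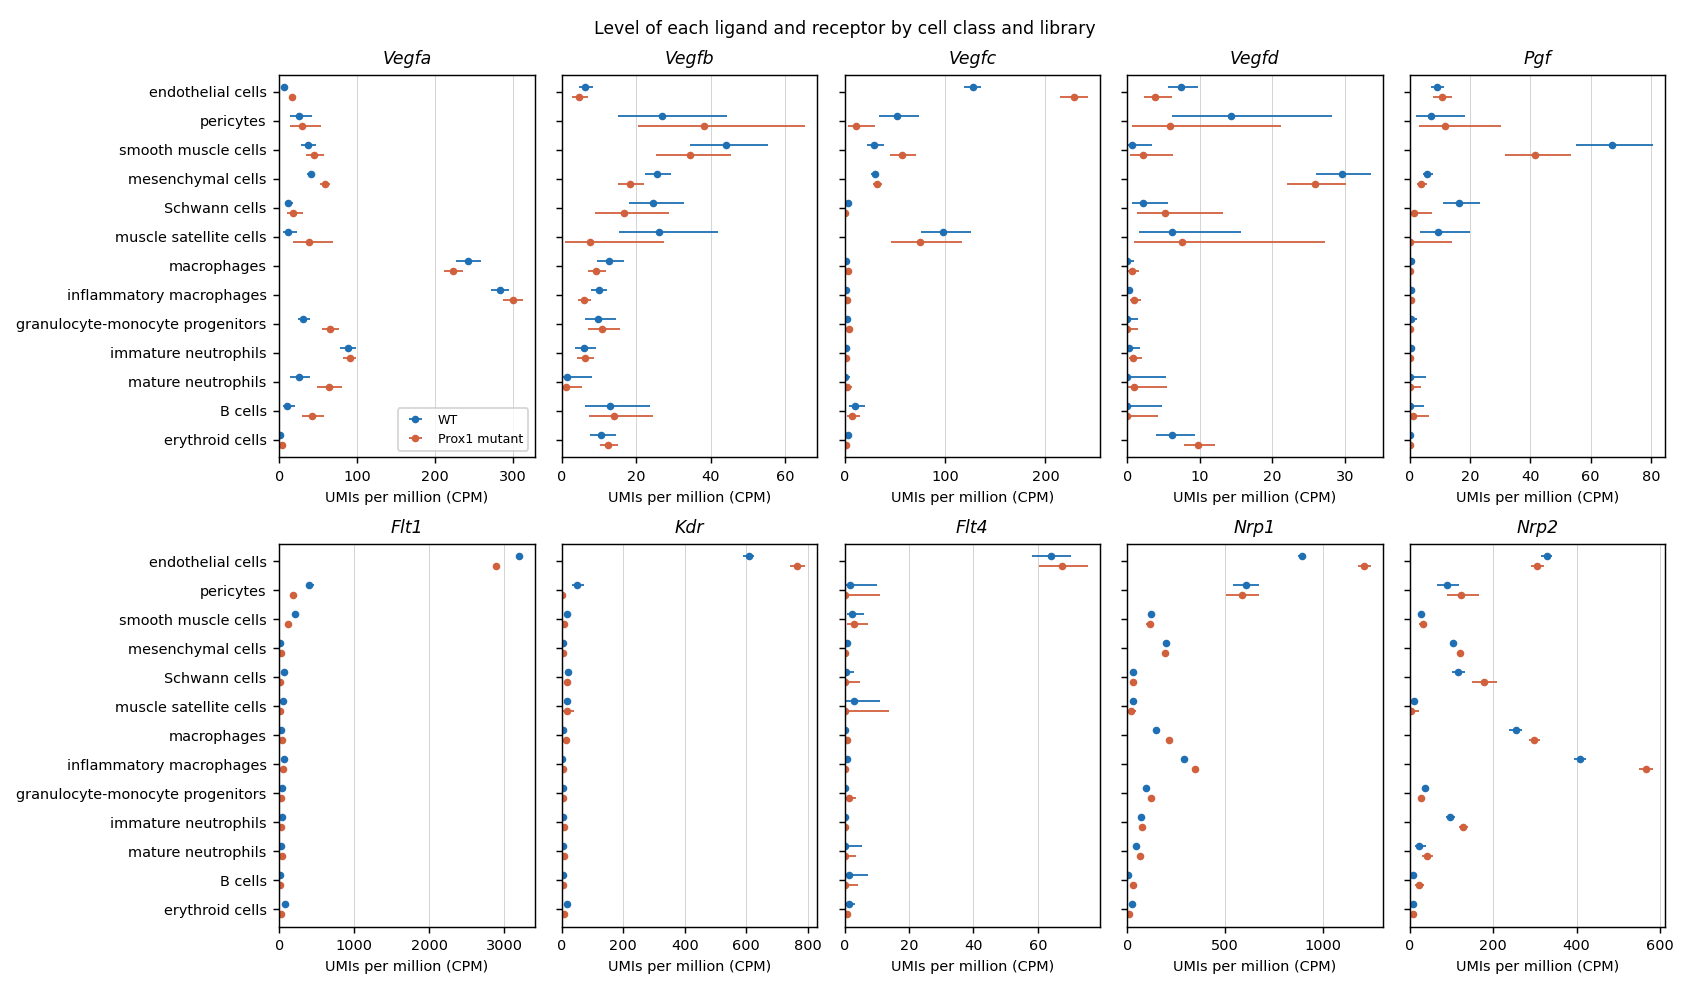
Level of each of the 10 genes in the 13 cell classes with at least 50 WT cells, as CPM of the class on a linear axis that differs between panels. Points are the WT (blue) and Prox1 mutant (orange) libraries and lines are exact Poisson 95% intervals. The receptor kinases Flt1, Kdr and Flt4 stand far out to the right in endothelial cells, Vegfa in both macrophage classes, and Pgf in smooth muscle cells.

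The ligands were highest in several kinds of cell, while the 3 receptor kinases were all highest in endothelium. Vegfa was carried by macrophages, Vegfc by endothelial cells, Vegfd by mesenchymal cells and Pgf by smooth muscle cells, so that only Vegfc was highest in the same class as its receptor Flt4. Among classes with at least 50 cells, endothelial cells led 5 of the 10 members in each library, namely Vegfc, Flt1, Kdr, Flt4 and Nrp1. For comparison, endothelial cells led 9.88% of all genes with at least 200 UMIs in WT and 9.85% in the mutant.

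**Figure D2:**
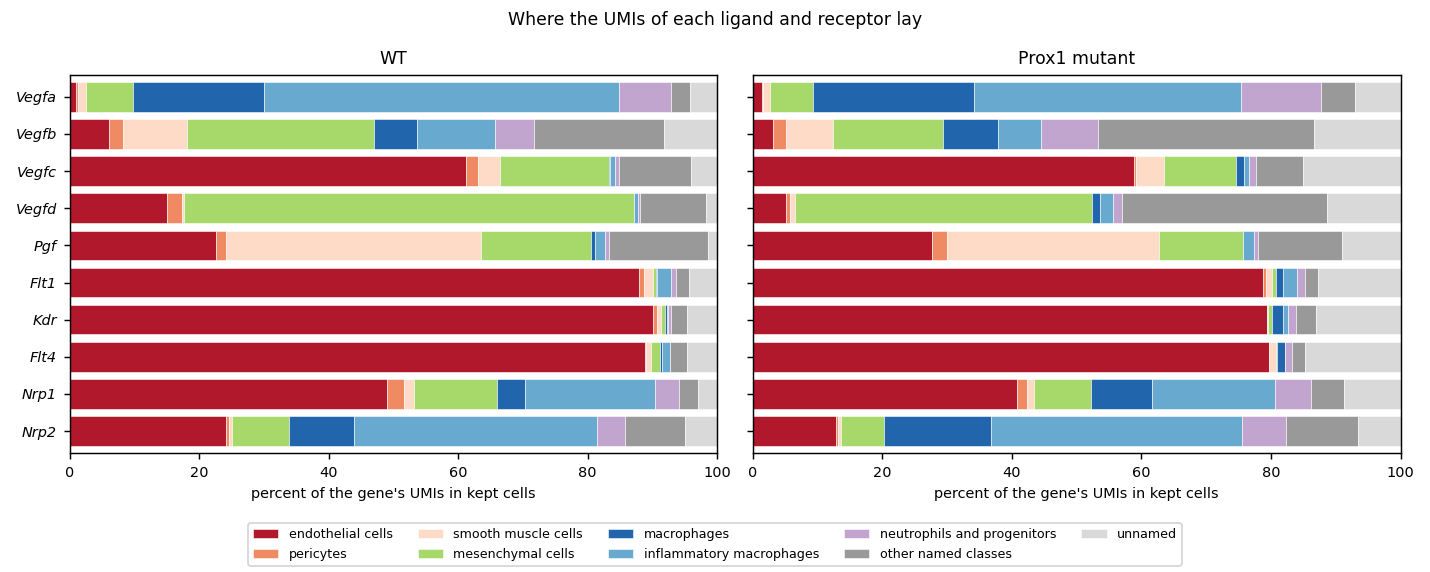
Share of each gene's UMIs, in percent of its UMIs over all kept cells, that lay in each group of cells, for the WT (left) and the Prox1 mutant library (right). Bars run from 0 to 100 percent, and the unnamed cells are drawn in light grey. Endothelial cells held 87.9% of the WT and 78.8% of the mutant Flt1 UMIs, and both macrophage classes together held 75.1% and 66.1% of the Vegfa UMIs.

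Vegfa (GRCm38 chr17:46016993-46032369, minus strand), the chief ligand of blood vessel growth, was highest in inflammatory macrophages. There it stood at 283 CPM in WT (272 to 295, 2535 UMIs) and at 300 in the mutant (288 to 312, 2282 UMIs). Macrophages followed with 242 (227 to 258) and 224 CPM (212 to 236), and the intervals of these classes did not overlap in either library. With every cell thinned to 2000 UMIs, 45.3% of WT and 43.5% of mutant inflammatory macrophages held a Vegfa UMI, against 86.6% and 79.0% before thinning at median depths of 26643 and 15101.5 UMIs. In B cells, which served as the background, the thinned shares were 1.68% and 3.23%, and the unthinned ones 4.76% and 11.02% at median depths of 4013 and 4773 UMIs. The level in inflammatory macrophages was thus far above background and almost equal in the libraries, with a log2 ratio of mutant over WT of 0.08 (-0.00 to 0.16).

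The remaining classes held less Vegfa. Immature neutrophils stood at 87.8 and 90.4 CPM in WT and mutant, and a share of this came from 1 of their 2 clusters, led by the macrophage gene Ccl8, since without it the levels were 27.9 and 37.9. Mesenchymal cells were at 40.2 and 58.6 CPM, smooth muscle cells at 36.8 and 45.0, and adipocytes at 164 CPM in the 116 mutant cells (the WT library held 6). These 116 adipocytes joined 2 unlike clusters, of 92 and 24 cells, with Flt1 at 236 and 3.77 CPM. Each adipocyte level given here and below is pooled over both. Apart from the classes described below, the other 4 classes of at least 50 cells lay between 0.813 CPM, in erythroid cells, and 25.1 CPM in WT and between 3.10 and 50.5 CPM in the mutant.

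Endothelial cells held little Vegfa, and more of it in the mutant library. The WT cells held 45 UMIs, or 6.32 CPM, and the mutant cells 75 UMIs, or 16.1 CPM, with a log2 ratio of 1.35 (0.80 to 1.92). Most of these UMIs lay in the arterial-like cells described below, at 18.8 and 50.1 CPM. B cells, however, also went from 10.3 CPM (8 UMIs) to 41.9 CPM (36 UMIs), and Vegfa in endothelial cells was below that level in both libraries. Its part in the endothelial difference was not tested.

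Among macrophages, the Vegfa level depended on the subcluster. Reclustering both classes gave a monocyte-like group, marked by Ccr2 and Ly6c2, at 330 CPM in WT and 337 in the mutant. A group led by Mmp12 and Cxcl3, without enough markers for a name, stood at 273 and 289 CPM. A shallower group led by the neutrophil granule genes Ngp and Camp (61 and 154 cells) was at 455 and 358 CPM, and one led by Ptprg (33 and 75 cells) at 208 and 187. M2-like cells, marked by the mannose receptor gene Mrc1, by Ccl8 and by Folr2, were by contrast at 64.1 and 36.8 CPM (61 and 72 UMIs), with a log2 ratio of -0.80 (-1.31 to -0.28). Hence the M2-like cells held far less Vegfa than the monocyte-like cells in both libraries. Of 11 hypoxia-induced genes with enough UMIs in the macrophages of both classes, 0 were higher and 1, Ndrg1, was lower in the mutant (97.2 and 57.3 CPM), against 16.7% and 4.13% of all genes. Their median log2 ratio was -0.11 against 0.22 over all genes.

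**Figure D3:**
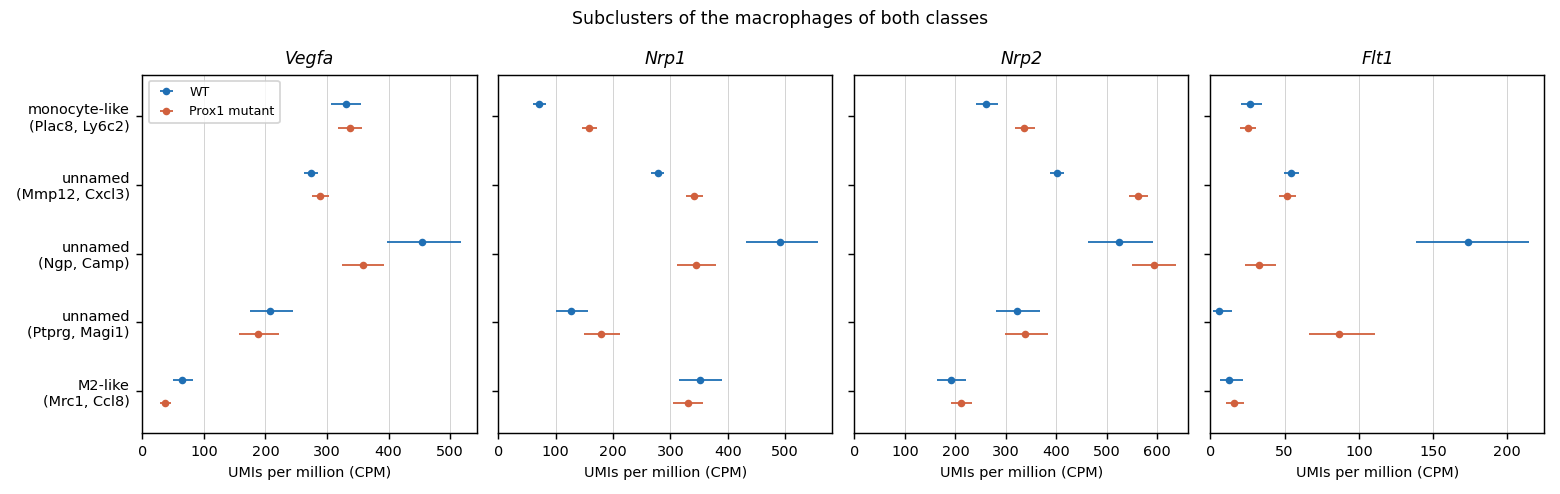
Levels of Vegfa, Nrp1, Nrp2 and Flt1, in CPM, in the 5 subclusters of the macrophages of both classes, for WT (blue) and Prox1 mutant (orange), with exact Poisson 95% intervals and the 2 leading genes of each subcluster in brackets. Vegfa was lowest in the M2-like cells in both libraries, and Nrp1 in the monocyte-like cells was 71.5 in WT and 158 in the mutant.

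Vegfb (chr19:6982473-6987651, minus strand), a Flt1 ligand linked to metabolism more than to vessel growth, was low and widespread. Smooth muscle cells had 44.1 CPM in WT and 34.3 in the mutant, pericytes 26.8 and 38.2, and mesenchymal cells 25.6 and 18.3, with intervals that overlapped between smooth muscle cells and pericytes in both libraries. The 116 mutant adipocytes reached 91.0 CPM. Inflammatory macrophages held 88 UMIs, 9.83 CPM, in WT and 45 UMIs, 5.91 CPM, in the mutant, with a log2 ratio of -0.73 (-1.29 to -0.20). Macrophages stood at 12.7 and 9.15 CPM and endothelial cells at 6.32 and 4.52. The other 7 classes of at least 50 cells in WT and 8 in the mutant spanned 1.45 to 26.1 CPM in WT and 0.974 to 17.0 in the mutant, with muscle satellite cells and T and NK cells at the upper ends.

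Vegfc (chr8:54077606-54187096, plus strand), the main lymphatic growth factor, was highest in endothelial cells among classes of at least 50 cells. In WT this lead was narrow, 1.30-fold over muscle satellite cells, and the intervals of these classes overlapped. WT endothelial cells held 909 UMIs, 128 CPM (119 to 136), and mutant endothelial cells 1060 UMIs, 228 CPM (215 to 242). The level was therefore 1.79-fold higher in the mutant library (log2 ratio 0.84, 0.71 to 0.97), and the intervals did not overlap. Endothelial cells contributed 61.2% of all Vegfc UMIs in WT and 58.9% in the mutant, in 1040 and 525 cells. A Vegfc UMI was seen in 14.4% of WT and 17.4% of mutant endothelial cells thinned to 2000 UMIs (21.8% and 29.7% unthinned at median depths of 4488.5 and 5966), against 1.68% and 1.08% of B cells (2.72% and 4.24% unthinned).

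Vegfc was highest in arterial-like endothelium. Endothelial cells were reclustered without the members into 5 subclusters, of which 3 could be named from their markers. Arterial-like cells, marked by Gja5, Sox17 and Hey1, carried 557 of the 909 WT and 749 of the 1060 mutant UMIs, at 455 and 816 CPM (log2 ratio 0.84, 0.68 to 1.003). Capillary-like cells stood at 59.4 and 85.9 CPM and venous-like cells, marked by Ackr1 and Selp, at 59.2 and 53.6 CPM. An unnamed subcluster led by Fhod3 was at 84.8 CPM in WT and 202 in the mutant (log2 ratio 1.25, 0.83 to 1.68), and another led by Btnl9 held 21 and 18 UMIs. In venous-like cells the log2 ratio was -0.14 and its interval took in 0 (-0.53 to 0.24).

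Outside endothelium, muscle satellite cells had 98.3 CPM of Vegfc in WT (75.7 to 126) and 75.6 in the 36 mutant cells, the 27 WT and 21 mutant osteoblasts and osteocytes had 95.6 and 132 (51 and 71 UMIs), mesenchymal cells had 30.3 and 32.2, and pericytes 51.9 and 11.8, with 19 of the 29 WT UMIs of pericytes in 1 cell. Both macrophage classes were near 0, with 1.04 and 1.12 CPM in WT and 3.27 and 2.10 CPM in the mutant, against 10.3 and 6.98 CPM in B cells. Smooth muscle cells went from 29.6 CPM in WT to 57.2 in the mutant (49 and 80 UMIs, log2 ratio 0.95), but a single cell supplied 20 of the WT and 38 of the mutant UMIs. With likely doublets removed, 14 and 2 UMIs were left there, at 10.0 and 1.60 CPM, and the direction turned (log2 ratio -2.64), whereas in endothelial cells the levels were then 129 and 226 CPM.

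Vegfd (chrX:164373378-164402650, plus strand), the second ligand of Flt4, was a mesenchymal transcript. Mesenchymal cells, marked by Dcn, Col3a1 and Pdgfra, held 244 WT UMIs (29.6 CPM) and 161 mutant UMIs (25.9 CPM), which was 69.5% and 45.9% of all Vegfd UMIs, and the intervals of the libraries overlapped. Erythroid cells had 6.24 and 9.77 CPM, the 63 WT pericytes 14.3 CPM (8 UMIs) and the 116 mutant adipocytes 17.9 CPM. Endothelial cells had 53 UMIs in WT (7.44 CPM) and 18 in the mutant (3.87 CPM), with a log2 ratio of -0.94 (-1.80 to -0.15), and 10 of the WT UMIs lay in 1 cell. In the remaining 9 classes of at least 50 cells in WT and 10 in the mutant the levels ran from 0 to 6.14 CPM in WT and from 0 to 15.7 CPM in the mutant.

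Pgf (chr12:85166635-85177790, minus strand), placental growth factor, which binds Flt1 but not Kdr, marked smooth muscle. Smooth muscle cells held 111 UMIs, 67.01 CPM (55.1 to 80.7), in WT and 58 UMIs, 41.5 CPM (31.5 to 53.6), in the mutant, with a log2 ratio of -0.69 (-1.18 to -0.22). Removing likely doublets left 69.5 and 43.3 CPM. Endothelial cells stood at 8.98 and 10.5 CPM, nearly all of it in venous-like cells (52 of 64 and 47 of 49 UMIs). Schwann cells had 30 UMIs in WT (16.4 CPM) and 1 in the mutant, and mesenchymal cells 5.83 and 3.70 CPM. The remaining classes of at least 50 cells stayed at or below 9.22 CPM in WT and 6.89 in the mutant, while the 27 WT and 21 mutant osteoblasts and osteocytes held 6 and 16 UMIs (11.2 and 29.7 CPM).

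Flt1 (chr5:147561604-147726011, minus strand), which binds Vegfa, Vegfb and Pgf and also exists as a secreted decoy, was an endothelial transcript. Endothelial cells held 22849 WT UMIs at 3207 CPM (3165 to 3249) and 13456 mutant UMIs at 2896 CPM (2848 to 2946). These levels differed by 1.11-fold, with a log2 ratio of -0.15 (-0.18 to -0.12). Among classes of at least 50 cells, the next was 7.97-fold lower in WT (pericytes) and 26.3-fold lower in the mutant (smooth muscle cells), whereas 34 mutant pericytes stood at 188 CPM and 18 mutant epithelial and gland cells at 236 CPM (16 UMIs), both above smooth muscle cells. After thinning, 96.8% and 95.8% of endothelial cells held a Flt1 UMI (98.8% and 99.4% unthinned), against 1.68% of WT and 0 of 93 mutant B cells (2.04% and 3.39% unthinned). Counts summed per gene cannot separate the membrane form from the secreted one.

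Kdr (chr5:75932827-75978458, minus strand), the main signalling receptor of blood endothelium, differed in the other direction. It stood at 608 CPM in WT endothelial cells (4333 UMIs, 590 to 627) and at 767 CPM in the mutant (3562 UMIs, 742 to 792), with a log2 ratio of 0.33 (0.27 to 0.40). A Kdr UMI was held by 67.2% of WT and 74.6% of mutant endothelial cells after thinning (86.1% and 93.7% unthinned), and by 0.84% and 0% of B cells. Among other classes Kdr was uneven, with 48.3 CPM in WT and 0 UMIs in mutant pericytes, and 55.7 CPM in the 107 mutant chondrocytes (32 UMIs, 13 of them in 1 cell). For each Kdr UMI there were thus 5.27 Flt1 UMIs in WT endothelial cells (5.10 to 5.45) and 3.78 in the mutant (3.64 to 3.92). Neither difference reached 1.5-fold.

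Upstream sequence is shown for 3 members led by endothelial cells, the windows of the others, Flt4 and Nrp1, lying wholly inside the annotated gene. The RefSeq windows (GRCm38.p6) span 250 bases before to 50 after a start and matched all 10 members, in 12 windows. Capitals mark the ETS core GGAA or its other strand TTCC, bound by a family of factors active in endothelium, and the cyclic AMP response element TGACGTCA, all read 5′ to 3′ on the strand of the gene. The stretches are chr5:147726012-147726261 for Flt1 (minus strand), chr5:75978459-75978705 for Kdr (minus strand) and chr8:54077282-54077531 for Vegfc (plus strand), all upstream of the first exon.

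Flt1: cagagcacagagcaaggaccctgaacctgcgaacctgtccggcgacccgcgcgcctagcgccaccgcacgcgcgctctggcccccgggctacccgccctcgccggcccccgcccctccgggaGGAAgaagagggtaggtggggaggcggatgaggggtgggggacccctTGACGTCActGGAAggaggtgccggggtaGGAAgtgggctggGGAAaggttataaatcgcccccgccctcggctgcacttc
Kdr: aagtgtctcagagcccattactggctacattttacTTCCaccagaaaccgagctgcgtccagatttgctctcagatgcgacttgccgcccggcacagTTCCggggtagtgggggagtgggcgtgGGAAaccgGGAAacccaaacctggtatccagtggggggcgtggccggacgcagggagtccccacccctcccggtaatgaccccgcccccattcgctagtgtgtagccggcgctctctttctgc
Vegfc: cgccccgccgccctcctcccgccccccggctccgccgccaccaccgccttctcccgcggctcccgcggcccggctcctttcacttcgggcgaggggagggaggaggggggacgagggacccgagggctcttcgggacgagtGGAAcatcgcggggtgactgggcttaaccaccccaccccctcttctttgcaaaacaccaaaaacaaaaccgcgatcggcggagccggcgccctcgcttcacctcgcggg

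The printed stretches hold 4 cores for Flt1, 4 for Kdr and 1 for Vegfc. An ETS core occurs in 95.98% of the 32851 promoter windows of the same length, with a median of 3, and 46.3% of windows hold at least the 4 of Flt1 and 28.6% at least the 5 in the whole Kdr window. The TGACGTCA element, by contrast, occurs in 1.79% of windows and in 1 of the 12 member windows, that of Flt1, where an ETS core begins 2 bases after it. These are matches of letters and not measured binding sites.

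Within endothelium the levels of Flt1 and Kdr differed between subclusters, of which the Fhod3-led and Btnl9-led ones have no vessel type. Flt1 was highest in the Fhod3-led and Btnl9-led subclusters (5220 and 4687 CPM in WT, 4010 and 4040 in the mutant), followed by capillary-like cells (4216 and 3862) and arterial-like cells (3049 and 3283), and lowest in venous-like cells (1543 and 1461). Kdr was highest in capillary-like cells, at 942 CPM in WT and 1377 in the mutant (log2 ratio 0.55, 0.44 to 0.65), and stood at 431 and 451 in venous-like and 340 and 452 in arterial-like cells. For both genes the intervals of capillary-like and venous-like cells were apart in each library, whereas within venous-like cells the intervals of the libraries overlapped.

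**Figure D4:**
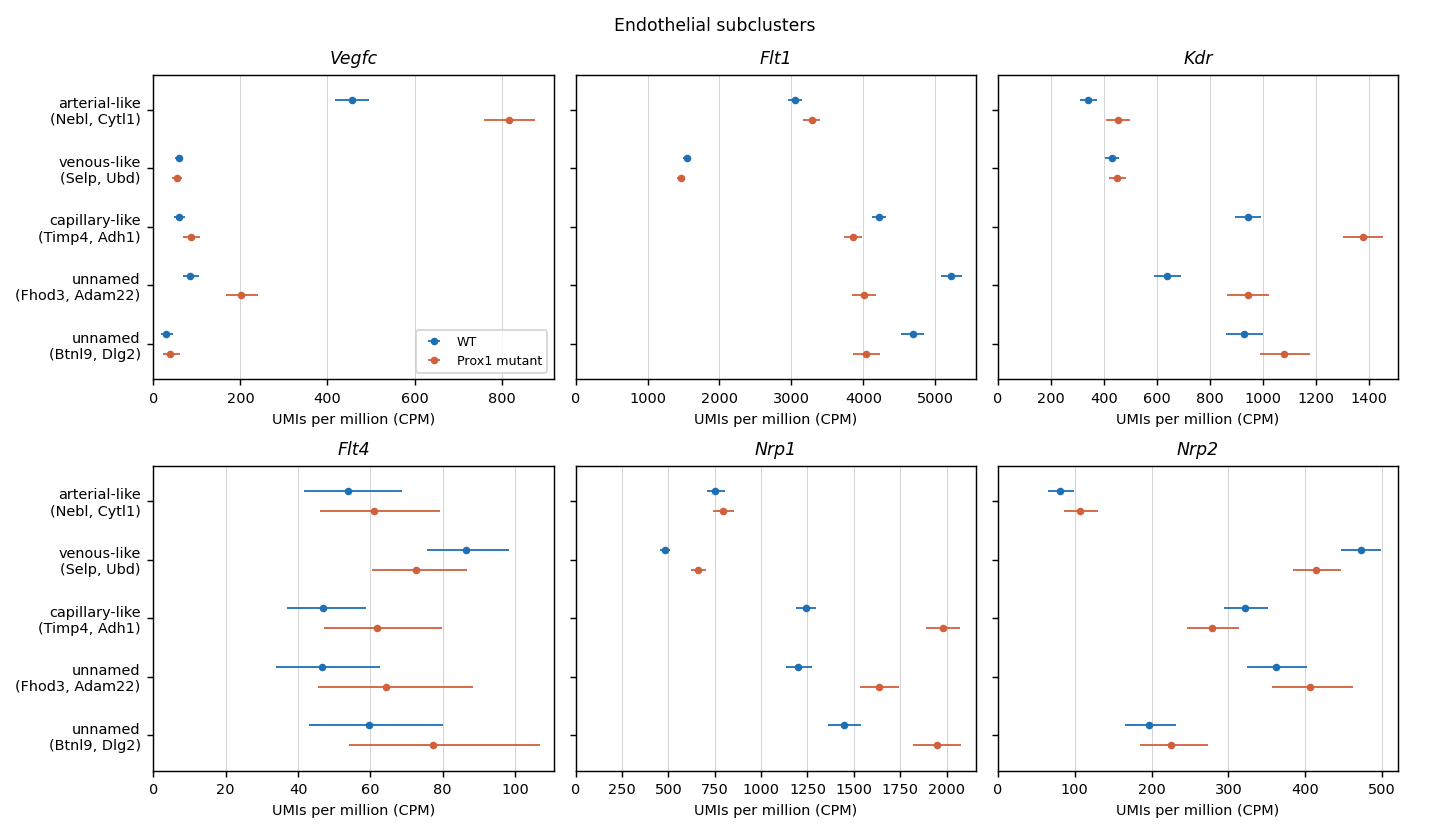
Levels of Vegfc, Flt1, Kdr, Flt4, Nrp1 and Nrp2, in CPM, in the 5 endothelial subclusters, for WT (blue) and Prox1 mutant (orange), with exact Poisson 95% intervals and the 2 leading genes of each subcluster in brackets. Vegfc stood out in arterial-like cells, at 455 in WT and 816 in the mutant, and Kdr was highest in capillary-like cells of the mutant, at 1377.

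Flt4 (chr11:49609263-49652739, plus strand), the receptor of Vegfc and Vegfd, was found almost wholly in endothelium among the named classes. Of its UMIs over all kept cells, endothelial cells held 88.9% in WT and 79.7% in the mutant, and the unnamed cells 4.68% and 14.7%. Its levels in endothelial cells were 64.0 CPM in WT (456 UMIs, 58.3 to 70.2) and 67.6 in the mutant (314 UMIs, 60.3 to 75.5), which overlapped (log2 ratio 0.08, -0.13 to 0.29). In the 12 and 13 other classes with at least 50 cells it lay between 0 and 3.07 CPM in WT and 0 and 2.86 in the mutant. After thinning, 10.6% and 12.2% of endothelial cells held a Flt4 UMI (24.6% and 35.4% unthinned), against 0.84% and 0% of B cells.

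Flt4 was seen in many cells without a UMI of a lymphatic gene, which at this depth does not show that they lacked lymphatic genes. Of the endothelial cells with a Flt4 UMI, 33 of 256 in WT (12.9%, 9.04 to 17.6) and 23 of 186 in the mutant (12.4%, 8.00 to 18.0) held a UMI of the lymphatic genes Mmrn1, Ccl21a, Reln, Lyve1, Pdpn or Prox1. Among endothelial cells without Flt4, 4.85% and 5.01% did, at lower median depths (4151 against 6412 UMIs in WT, 5630 against 7025 in the mutant). Venous-like cells had 86.5 and 72.8 CPM of Flt4, capillary-like cells 46.9 and 61.8, and arterial-like cells 54.0 and 61.0, with overlapping intervals between the libraries in each. The main cluster led by Ubd and Selp held 406 of 407 WT and 111 of 111 mutant endothelial UMIs of Mmrn1. At a finer resolution no subcluster was named venous, while an angiogenic (108 and 56 cells) and a lymphatic one (57 and 37 cells) appeared. The venous-like level of Flt4 can thus include lymphatic cells, and was not split.

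Flt4 was nonetheless densest in endothelial cells with lymphatic markers. At a finer resolution a subcluster of 57 WT and 37 mutant cells led by Ccl21a, Stab2 and Mmrn1 had 5 lymphatic markers raised. Raised with them were 6 venous and 3 sinusoidal markers, so its cells need not all be lymphatic. This lymphatic-like subcluster held Flt4 at 229 CPM in WT (146 UMIs) and 160 in the mutant (82 UMIs), and Nrp2, the co-receptor tied to lymphatic growth, at 788 and 616 CPM. A stricter gate, at least 2 UMIs over Mmrn1, Ccl21a, Reln, Lyve1 and Pdpn, kept 15 WT and 12 mutant cells, in which Flt4 reached 520 CPM (107 UMIs) and 315 CPM (69 UMIs). Of these UMIs 48 and 18 came from a single cell. In the 15 gated WT cells Vegfc had 0 UMIs, where 3 UMIs would stand at 14.6 CPM, and 14 of the 53 endothelial Vegfd UMIs of the WT library lay in them. With so few cells, the difference between the libraries in gated cells is a description of 15 and 12 cells.

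Nrp1 (chr8:128358604-128503363, plus strand), the co-receptor that presents Vegfa to Kdr, was shared between endothelium, pericytes, macrophages and mesenchymal cells. Endothelial cells stood at 892 CPM in WT (870 to 914) and 1211 in the mutant (1180 to 1243), with a log2 ratio of 0.44 (0.39 to 0.49). Pericytes had 605 and 585 CPM (63 and 34 cells), inflammatory macrophages 290 and 345, macrophages 149 and 212, and mesenchymal cells 201 and 193, while the 116 mutant adipocytes had 360. The rest of the classes of at least 50 cells lay between 6.43 and 123 CPM in WT and 11.7 and 123 CPM in the mutant. Capillary-like endothelium carried the larger difference, 1242 in WT and 1979 in the mutant (log2 ratio 0.67, 0.58 to 0.76), whereas arterial-like cells were at 754 and 796 (0.08, -0.06 to 0.22). Monocyte-like cells had 71.5 CPM in WT (157 UMIs) and 158 in the mutant (541 UMIs), with a log2 ratio of 1.14 (0.89 to 1.41), while the M2-like cells stood at 351 and 330.

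Nrp2 (chr1:62703285-62818695, plus strand) was highest in inflammatory macrophages, at 408 CPM in WT (395 to 422) and 567 in the mutant (550 to 584), with a log2 ratio of 0.47 (0.41 to 0.54). Endothelial cells followed at 329 and 306 CPM and macrophages at 254 and 299, and in the mutant the intervals of endothelial cells (290 to 322) and macrophages (285 to 313) overlapped. Among endothelial subclusters, the order of venous-like and arterial-like cells was opposite to that of Vegfc. Venous-like cells, which can include lymphatic ones, had 472 and 414 CPM and arterial-like cells 80.9 and 107. The 27 WT and 21 mutant osteoblasts and osteocytes, too few for the ranking, reached 1083 and 1568 CPM, with 390 of the 845 mutant UMIs in 1 cell. Schwann cells had 116 CPM in WT and 177 in the mutant and mesenchymal cells 104 and 121. Immature neutrophils had 97.2 and 128 CPM, and 13.1 and 17.9 without their Ccl8-led cluster.

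The libraries were compared gene by gene within a class, a member being called higher or lower in the mutant at a difference of at least 1.5-fold whose interval left out 0, with at least 50 UMIs over both libraries. In endothelial cells all 10 members could be compared. Of these 2 were higher in the mutant, Vegfa and Vegfc, against 5.9% of 10690 genes, and 1 was lower, Vegfd, against 5.76%. These 3 calls held in all 9 alternatives of filtering, clustering, doublets and class definition, with log2 ratios of 0.60 to 1.501 for Vegfa, 0.66 to 0.93 for Vegfc and -1.22 to -0.87 for Vegfd. The Vegfd call rests on 53 and 18 UMIs, with 10 of the WT UMIs in 1 cell, and was not tested without that cell. Endothelial Vegfa, however, lay below its level in B cells in both libraries, as given above, also without likely doublets. In mesenchymal cells 0 of 9 members were higher or lower, against 7.27% and 6.34% of genes. Without likely doublets, however, Vegfa (39.1 and 58.9 CPM) and Flt1 (6.48 and 18.7 CPM, 51 and 110 UMIs) were called higher there.

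**Figure D5:**
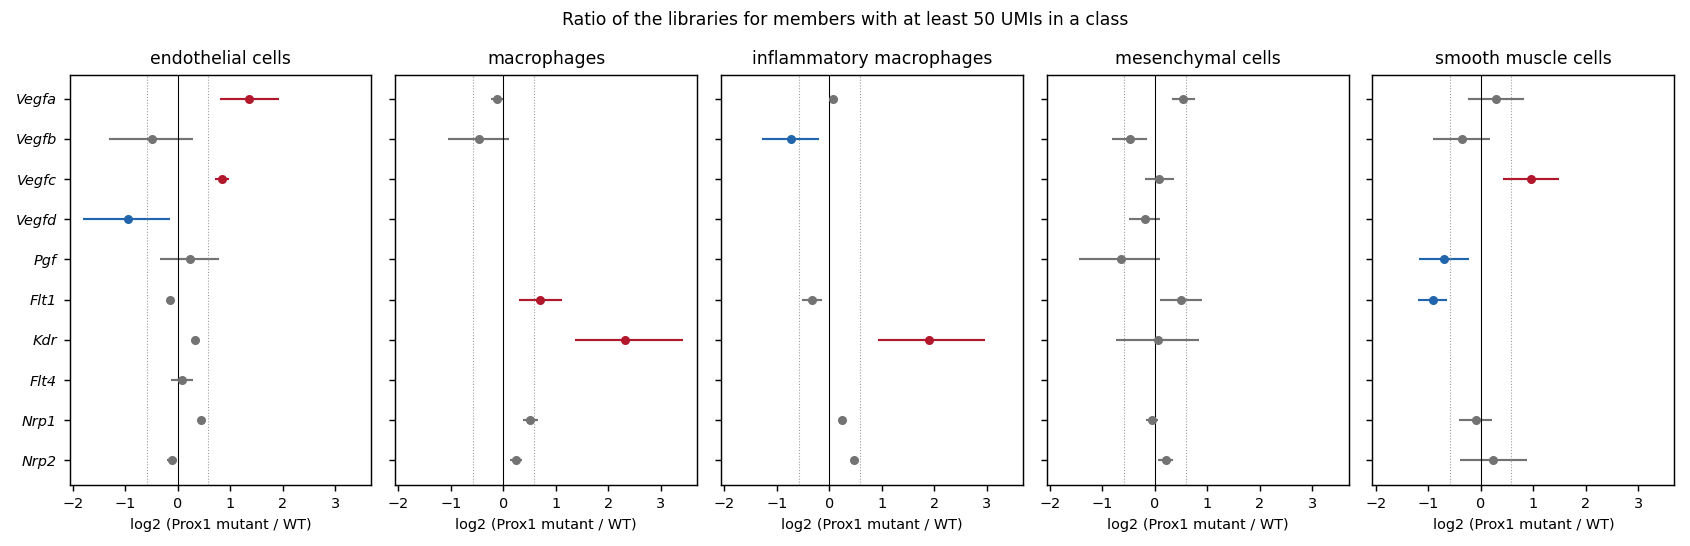
Log2 ratio of the Prox1 mutant over the WT library for each member with at least 50 UMIs over both libraries, in 5 cell classes, with exact conditional 95% intervals that cover counting error only. Red points are called higher and blue points lower in the mutant, grey points neither, and dotted lines mark 1.5-fold. In endothelial cells Vegfa and Vegfc lie to the right and Vegfd to the left, while Flt1, Kdr, Flt4, Nrp1 and Nrp2 stay within the dotted lines.

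In macrophages 2 of 6 members were higher in the mutant, the receptors Flt1 and Kdr, against 8.82% of genes, and 0 were lower, against 3.86%. Kdr had 10 UMIs in WT (2.59 CPM) and 79 in the mutant (12.9 CPM), with a log2 ratio of 2.31 (1.36 to 3.43), with at most 11 mutant UMIs in 1 cell. Flt1 had 70 UMIs (18.2 CPM) and 180 UMIs (29.4 CPM), with 31 of the mutant UMIs in 1 cell. B cells held Kdr at 3.86 and 3.49 CPM and Flt1 at 3.86 and 5.81 CPM. The Kdr call held in 7 of 7 alternatives and the Flt1 call in 4. Beside these, Cdh5, the endothelial cadherin, had 4 and 28 UMIs in macrophages, or 1.04 and 4.57 CPM, and Emcn 6 and 13 UMIs. With likely doublets removed, Kdr was at 2.39 and 11.6 CPM and still called, and Flt1 at 18.3 and 26.9 CPM and no longer called. Over both macrophage classes, Flt1 was uneven in the small subclusters, with 173 and 32.5 CPM in the Ngp-led and 5.81 and 86.8 CPM in the Ptprg-led cells, whereas the monocyte-like cells were at 26.9 and 25.1 CPM and the Mmp12-led cells at 54.4 and 51.8. The part of endothelial RNA in these counts was not tested.

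In inflammatory macrophages 1 of 6 members was higher in the mutant, Kdr (12 and 38 UMIs, 1.34 and 4.99 CPM), against 18.6% of genes, and 1 was lower, Vegfb, against 4.49%. Each of these calls held in 3 of 7 alternatives, and without likely doublets Kdr had 8 and 34 UMIs, too few for a call. B cells held Kdr at 3.86 and 3.49 CPM, above the WT and below the mutant level here. Without likely doublets Vegfb, at 9.83 and 5.97 CPM, lay below its 13.1 and 16.2 CPM in B cells. In inflammatory macrophages Flt1 had 551 and 372 UMIs, 61.6 and 48.9 CPM, and 57.5 and 48.7 CPM without likely doublets. It came with 45.9 Flt1 UMIs per Kdr UMI in WT (26.1 to 89.4) and 9.79 in the mutant (7.0004 to 14.1), with Cdh5 at 2.12 and 2.10 CPM. The mutant value joined 2 unlike clusters, the one led by Mmp12 with 18.5 Flt1 UMIs per Kdr UMI (11.5 to 31.6) and the one led by Cacna1d with 1.95 (1.11 to 3.53), the first above and the second below the 3.78 of mutant endothelial cells. Thinned to 2000 UMIs, 7.82% and 7.84% of these cells held a Flt1 UMI, against 34.1% and 25.9% unthinned.

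In smooth muscle cells 1 of 7 members was higher in the mutant, Vegfc, against 4.93% of genes, and 2 were lower, Pgf and Flt1, against 6.45%. Of 7 alternatives, 4 kept the Vegfc call, 5 the Pgf call and 6 the Flt1 call. Flt1 had 344 WT UMIs (208 CPM) and 154 mutant UMIs (110 CPM), of which 95 and 57 lay in 1 cell each, and Cdh5 stood at 46.5 and 25.7 CPM. Removing likely doublets lowered Flt1 to 116 and 13.6 CPM. Pericytes, with 63 and 34 cells, had 403 and 188 CPM of Flt1 and then 227 and 180, with Cdh5 at 42.9 and 2.94 CPM before removal.

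In Schwann cells 1 of 5 members was higher, Nrp2, against 7.46% of genes, and 1 was lower, Flt1, against 10.4%. The Nrp2 call held in 3 of 7 alternatives (log2 ratios of 0.36 to 0.61) and the Flt1 call in 5. Flt1 had 124 UMIs in WT (67.8 CPM) and 7 in the mutant (9.04 CPM), but 42 of the WT UMIs lay in 1 cell, and without likely doublets 15 and 7 UMIs remained, at 8.94 and 9.68 CPM. In erythroid cells 0 of 6 members were higher, against 12.7% of genes, and 3 were lower, Flt1, Kdr and Nrp1, against 7.18%. The Flt1 call held in 7 of 7 alternatives, the Kdr call in 4 and the Nrp1 call in 3. Flt1 there was 81.6 CPM in WT and 21.2 in the mutant, Kdr 16.3 and 6.44, and Cdh5 21.4 and 4.41. Without likely doublets Flt1 was 14.0 and 8.01 CPM, Kdr 1.24 and 1.78 CPM (4 and 14 UMIs, too few for a call) and Nrp1 3.42 and 5.97 CPM. The log2 ratios of Kdr (0.52, -1.16 to 2.58) and Nrp1 (0.80, -0.16 to 1.90) were then positive, but their intervals took in 0. Vegfb was then called higher in erythroid cells, at 8.40 and 13.1 CPM.

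Granulocyte-monocyte progenitors, marked by Mpo and Elane, had Vegfa at 31.0 CPM in WT and 65.1 in the mutant, and mature neutrophils at 24.7 and 63.3, beside 10.3 and 41.9 CPM in B cells. Of 5 members compared in the progenitors 1 was higher, against 14.4% of genes, and 1 was lower, Flt1 (31.8 and 18.8 CPM), against 7.14%. Of 4 members compared in mature neutrophils 1 was higher, against 11.9% of genes, and 0 were lower, against 13.4%. Each of the Vegfa calls held in 5 of 7 alternatives and the Flt1 call in 4. Without likely doublets the mature neutrophils held 17 and 29 Vegfa UMIs, at 26.7 and 35.3 CPM, too few for a call, and the progenitors 29.0 and 46.7 CPM. In the progenitors Nrp2 was then called lower, at 35.3 and 20.4 CPM. In immature neutrophils 0 of 5 members were higher or lower, against 9.57% and 7.39% of genes, but without likely doublets Nrp1 was called higher (49.9 and 79.9 CPM).

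Genes that work with the VEGF system were read in endothelial cells from 8 lists, against 5.9% of all genes called higher, 5.76% called lower and a median log2 ratio of 0.03 over all genes. Among 9 genes that VEGF induces in endothelium, 2 were higher and 0 lower in the mutant, Esm1 (6.88 and 15.7 CPM), which marks tip cells, and Angpt2 (28.1 and 43.0 CPM), an antagonistic ligand of the receptor Tek, and the list's median log2 ratio was 0.08. Of 5 angiopoietin and Tie genes the 2 that were higher were Angpt2 and Angpt1 (6.46 and 12.5 CPM), with a median log2 ratio of 0.22 over the list. Of 8 neuropilin partners, plexins and class 3 semaphorins, 1 was higher, Sema3a, at 44.5 CPM in WT and 83.1 in the mutant, with a median of 0.31 over the list. For the VEGF-C processing list 0 of 4 genes were called in either direction, for the receptor signalling partners 0 of 9 and for the secreted inhibitors 0 of 4, with median log2 ratios of 0.15, -0.06 and -0.11. Outside endothelium the processing list did hold calls, as did the other lists. In macrophages of both classes 3 of 5 neuropilin partners and 3 of 4 VEGF-induced genes were higher, against 16.7% of genes. Only the processing list is given by gene here. In mesenchymal cells 2 of its 6 genes were lower, Adamts3 (63.6 and 35.2 CPM) and Pcsk5 (558 and 299 CPM), against 6.34% of genes, and 0 were higher, against 7.27%. In macrophages of both classes 1 of 3 processing genes was higher, Furin (79.4 and 120 CPM), against 16.7% of genes, and 0 were lower, against 4.13%.

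Hypoxia-induced and lymphatic genes were mixed in endothelial cells. Of 11 hypoxia-induced genes 1 was higher, Pfkfb3, a glycolytic regulator (175 and 314 CPM), and 3 were lower, Slc2a1, the glucose transporter (64.7 and 29.5), Adm (7.02 and 3.66) and Ankrd37 (9.82 and 6.03). Of 8 lymphatic identity genes 3 were lower in the mutant, Mmrn1 (57.1 and 23.9 CPM), Reln (34.7 and 16.6) and Prox1 itself, and 2 were higher, Lyve1 (7.72 and 23.9) and Ccl21a. The 15 WT and 12 mutant cells of the lymphatic gate held 403 of 407 and 111 of 111 endothelial Mmrn1 UMIs. They also held 51 of 55 and 110 of 111 Lyve1 UMIs, and 258 of 296 and 48 of 119 Prox1 UMIs. The Mmrn1 and Lyve1 calls thus rest on these few cells, which were picked partly by the same genes. The lymphatic list had a median log2 ratio of -0.44 and the hypoxia list of -0.26, against 0.03 over all genes, of which 5.9% were called higher and 5.76% lower.

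Genes with the most similar pattern were sought over 22 points, 11 classes in each library, among genes with at least 200 UMIs, by Pearson correlation of log2(CPM + 5). The points share their library and differ in depth, so r is descriptive. Flt4 was nearest to Dll4 (r = 0.99), Ido1 and Bcl6b, Flt1 to Podxl (r = 0.96), Adgrf5 and Cyyr1, and Kdr to Wscd1 (r = 0.98), Slc26a10 and Ripply3. Vegfc was nearest to Osbpl10 (r = 0.96), Hoxd8 and Adgrl2, Vegfa to Cacna1d (r = 0.95), Pid1 and Tmem104, Nrp1 to Adam15 (r = 0.96), Afdn and Peak1, and Nrp2 to Sdc3 (r = 0.93), Sash1 and Rai14. Pgf was nearest to Akap6 (r = 0.98), Reep1 and Scn3a, Vegfd to Fam161a (r = 0.91), Sult5a1 and Arsj, and Vegfb to mt-Atp6 (r = 0.93), 2010320M18Rik and Mmadhc.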

How the data were processed

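Single cells from the TMJ were profiled by 10x Genomics 3′ sequencing. The authors deposited gene-by-cell matrices of UMI counts per library, made with Cell Ranger 7.0.1 on mm10 per the labels. The handling of intronic reads and of doublets before deposit is not given in the sources used here. The deposited counts comprised 5709 WT barcodes with 53517206 UMIs and 7846 mutant barcodes with 62446987 UMIs.

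Barcodes were retained at a minimum of 500 detected genes and a mitochondrial share below 10%, normalised with SCTransform, integrated over 3000 features and clustered with 200 principal components at resolution 1.5 (Seurat 5.3.0, sctransform 0.4.2, R 4.3.3), without the 10 members. Clusters were named when at least 3 fixed markers were raised at least 2-fold and present in at least 10% of cells. A cluster that met this was left unnamed if markers of another class outnumbered its own among its 10 leading genes. It was also left unnamed if it was shallow against its libraries and had none of its own markers among those genes. The depth rule left out 2 clusters with endothelial markers, of 221 WT and 288 mutant cells. Endothelial cells and macrophages were reclustered. Scrublet's automatic threshold called 0 doublets in either library, so the highest scores, 239 WT and 462 mutant barcodes, were removed at the expected rate as an alternative.

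UMIs were summed per class and library and divided by the class total (CPM). Intervals are exact Poisson for levels, Clopper-Pearson for shares and conditional binomial for ratios, and cover counting error only. A ratio was called at 1.5-fold or more with an interval without 0, at least 50 UMIs over both libraries and more than 3 in each, and the background is the share of all genes so called in the class. B cells served as background for free RNA, and shares of cells were compared after thinning to 2000 UMIs. The pipeline was tested on simulated data with Python 3.11.15, numpy 2.4.6 and scipy 1.17.1. Beside the members and Prox1, at most 4 genes per list with the largest library difference were named by rule, and the 3 genes most like each member. Ccl21a, the hypoxia-induced genes called in endothelial cells and the VEGF-C processing genes called in other classes were named after their values were seen. The members, marker genes and lists were chosen with earlier results of these data known.

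Limits are that CPM of 3′ UMIs are not comparable between genes, and that one library per genotype allows no test. Positions are GRCm38, and promoter windows are RefSeq GRCm38.p6.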

Additional observations from a re-analysis of the deposited data

Results flagged for a closer look

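Before likely doublets were removed, the receptor genes Flt1 and Kdr differed between the libraries in opposite directions in different classes. The difference itself was not tested, since each genotype has 1 library. Flt1 was higher in the mutant in macrophages (18.2 CPM in WT, 29.4 in the mutant) and lower in Schwann cells (67.8 and 9.04 CPM), a difference of 3.60 between the log2 ratios. Without likely doublets the levels were 18.3 and 26.9 CPM in macrophages and 8.94 and 9.68 CPM in Schwann cells, so the Schwann cell ratio turned positive.

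Kdr was higher in the mutant in macrophages (2.59 and 12.9 CPM) and lower in erythroid cells (16.3 and 6.44 CPM), a difference of 3.65 between the log2 ratios. Without likely doublets it was 2.39 and 11.6 CPM in macrophages and 1.24 and 1.78 CPM in erythroid cells, so the erythroid ratio turned positive. Both results rest on few UMIs outside endothelium, and the part of endothelial RNA in them was not tested.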

How the results depend on the processing

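Of 101 log2 ratios for the class that led each member, under other filters, clusterings, class definitions and weights, 87 moved by less than their interval and 99 kept their sign. In endothelial cells defined by a marker gate instead of clusters, the ratios were 0.66 for Vegfc, -0.41 for Flt1, 0.066 for Kdr, -0.20 for Flt4, which turned sign, and 0.18 for Nrp1. With the shallow clusters that hold endothelial markers included, they were -0.19 for Flt1 and 0.38 for Nrp1. As means of per-cell CPM, they were -0.25 for Flt1, 0.32 for Flt4 and, in inflammatory macrophages, 0.55 for Nrp2. Nrp2 there was 0.37 with the looser cell filter, 0.33 with libraries merged without integration and 0.28 at resolution 0.5, where Vegfa was -0.023. Among ratios in other classes, removing likely doublets turned Vegfc in smooth muscle cells to -2.64, Flt1 in Schwann cells to 0.11, and Kdr and Nrp1 in erythroid cells to 0.52 and 0.80. Except for Vegfc, the intervals of these ratios took in 0. Merging turned Nrp1 in erythroid cells to 0.025 and Flt1 in granulocyte-monocyte progenitors to 0.48, 30 principal components turned Flt1 in Schwann cells to 0.39, and the marker gate turned Flt1 in macrophages to -0.16. The cause was not tested. Of the levels in CPM under alternatives, 146 stayed within their interval and 68 did not. At a minimum of 1000 genes and under 5% mitochondrial UMIs, Vegfb stood at 26.0 CPM in WT smooth muscle cells and 47.2 in mutant adipocytes, and Pgf at 26.4 in mutant smooth muscle cells, each over 1.5-fold below the value given above. Of 140 lead classes under 7 other settings 136 were as given. The exceptions were Vegfb in WT under the strict filter (satellite cells) and Nrp2 in the mutant at resolution 0.5 (chondrocytes) and in both libraries with 30 principal components (osteoblasts).

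Few UMIs limit the values of Vegfd and Pgf, and of Kdr and Flt1 outside endothelium. No paired analysis was possible because each genotype has 1 library.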
